A study of Mus musculus with 9 samples.

Results

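The integrated stress response and the unfolded protein response were followed through 10 genes of the deposited count table, chosen by symbol: *Atf4*, *Ddit3*, *Trib3*, *Chac1*, *Asns*, *Psat1*, *Hspa5*, *Xbp1*, *Atf6* and *Dnajb9*. All 10 had a row among the 24421 rows of the table, and all 10 passed the filter on low counts in both comparisons. SB28 is a mouse glioma cell line carrying GFP and luciferase, and BAL101553 is an oral prodrug that activates the spindle assembly checkpoint. Bulk RNA sequencing was available for 9 libraries in 3 groups of 3, all labelled as brain from C57BL/6 mice: controls, BAL101553-treated tumors, and libraries labelled astrocytes whose treatment label is also BAL101553. BAL101553-treated tumors were taken later after implantation than control tumors, so that drug and time of growth cannot be told apart. SB28 cells were described as sorted on GFP without CD45 and CD11b, although the labels call the material whole tissue. The day of harvest and the sort were not stated for the libraries labelled astrocytes. The labels do not tie libraries to mice. The study calls its SB28 libraries biological replicates but describes fewer of them than are labelled here, so p-values measure the spread between these libraries, which may be technical in part.

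In the integrated stress response, kinases that sense amino acid shortage, misfolded protein, heme shortage or viral RNA phosphorylate the initiation factor eIF2. General translation then falls while the transcription factor ATF4 is made in greater amounts, and ATF4 turns on genes for amino acid supply and, with CHOP (encoded by *Ddit3*), genes linked to cell death. The unfolded protein response uses one of these kinases, PERK, together with the sensors IRE1 and ATF6 in the endoplasmic reticulum, which raise chaperones through XBP1 and the cleaved form of ATF6. Much of this control acts on translation, splicing or cleavage, none of which a count of reads per gene can see.

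The regulatory letters of these genes are shown because the 2 arms act through different elements. ATF4 and its partners bind a composite C/EBP-ATF element whose core was searched as TGATGNAA, and ATF6 and XBP1 act through the endoplasmic reticulum stress element ERSE, searched in its consensus form. Promoters (RefSeq, build GRCm38.p6) were matched for 9 of the 10 genes, not for *Atf6*, and both strands of the 250 bases before the start were read. The C/EBP-ATF core was found in *Chac1* and *Asns*, against 3.45% of all promoters, and the stress element in *Hspa5*, against 0.113% of all promoters. A core of the XBP1 element, TGACGTGG, was in none of the 9, against 0.563% of all promoters. The capitals mark the match, which is reversed in *Chac1*, at chr2:119351038-119351067 (plus strand), chr6:7693214-7693243 (minus strand) and chr2:34772020-34772048 (plus strand) in turn.
*Chac1*: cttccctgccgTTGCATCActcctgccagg
*Asns*: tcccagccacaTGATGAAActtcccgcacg
*Hspa5*: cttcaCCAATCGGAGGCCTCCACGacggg

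For *Xbp1*, the 26 bases that IRE1 cuts out of the mRNA are shown, since reads with and without them fall in the same gene count. They lie in exon 4 of 5, at chr11:5524279-5524304 on the plus strand (GENCODE vM21, GRCm38), inside the coding sequence. With these bases the reading frame of the annotated transcript has 267 codons, and without them it runs on to 371, which is the form that encodes the active factor. The capitals mark the bases removed.
*Xbp1*: cgCAGCACTCAGACTATGTGCACCTCTGca

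Levels are CPM, the counts of a gene relative to the library total, scaled by edgeR's TMM method over all 9 libraries, which held 22919523 to 34013875 counts each. The microglial and macrophage markers summed to 2.06 to 4.51 CPM over 8 genes in the 6 SB28 libraries, so that few such reads were present there. In the libraries labelled astrocytes, 6 astrocyte markers summed to 11847 to 14581 CPM, but 6 oligodendrocyte markers to 10495 to 13036 CPM and the 8 microglial markers to 437 to 945 CPM, so these libraries held RNA of several glial types. In the same libraries 5 neuronal markers summed to 218 to 234 CPM, most of it *Map2*. The endothelial genes *Cldn5* and *Pecam1* had 61.1 to 65.2 and 19.0 to 27.9 CPM there, so the mixture need not be glial only. Leaving out control 3 cut the number of genes that changed after BAL101553 from 1860 to 193. Without both control 3 and BAL101553 1 it was 1, so results are also given without them. The study describes 2 libraries per group without saying which, and no other choice of 2 libraries per group was fitted here.

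Within a library, levels of different genes were compared per kilobase of exon. In the control libraries *Hspa5* was highest, with a median of 441 CPM per kilobase, followed by *Atf4* at 198, *Psat1* at 99.7 and *Asns* at 67.3 CPM per kilobase, and none of these neighbours overlapped. *Ddit3* at 38.8 and *Xbp1* at 29.7 CPM per kilobase came next without overlap, whereas *Chac1*, *Trib3*, *Atf6* and *Dnajb9*, with medians of 16.1 CPM per kilobase or less, overlapped each other in order. In the BAL101553 libraries *Chac1* stood at 31.6 CPM per kilobase, beside *Xbp1* at 28.1 and *Trib3* at 27.8, and these 3 overlapped in order. In the libraries labelled astrocytes the order was another one, with *Psat1* highest at 211 CPM per kilobase and *Trib3* and *Chac1* lowest at 0.311 and 0.259 CPM per kilobase.

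**Figure D1:**
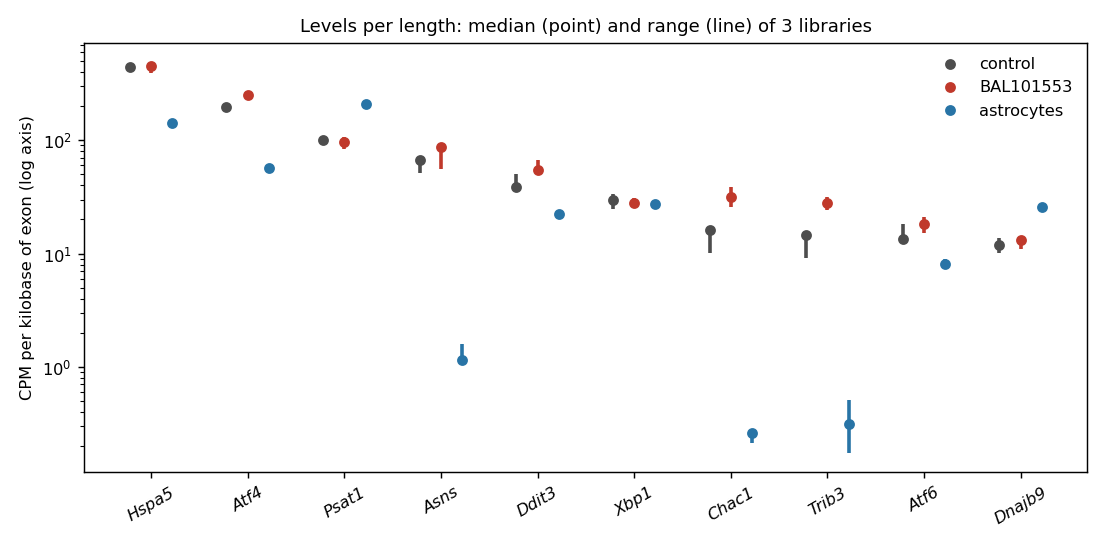
Level of each gene in CPM per kilobase of exon (log axis), in control (grey), BAL101553 (red) and astrocyte-labelled libraries (blue). Points are medians and lines are ranges of 3 libraries. Hspa5 leads in both SB28 groups, and Trib3, Chac1 and Asns fall to 1.58 CPM per kilobase or less in the libraries labelled astrocytes.

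SB28 cells from BAL101553-treated mice had higher *Chac1*, *Trib3* and *Atf4* mRNA than control cells. *Ddit3*, *Asns*, *Psat1*, *Hspa5*, *Dnajb9*, *Xbp1* and *Atf6* did not pass the test. Of the 10 genes, 3 rose and 0 fell with an adjusted p under 0.05 (edgeR's quasi-likelihood test, Benjamini-Hochberg over all 12633 genes tested), while 14.7% of all genes tested passed, 8.64% upward and 6.09% downward. For these 3 genes the lowest BAL101553 library lay above the highest control, a pattern shown by 20.0% of all genes tested. Without control 3, 0 of the 10 genes passed, and the call of *Atf4* was lost in 10 of 17 alternative fits. The median log2 fold change of the 10 genes was 0.31, and that of all genes was 0.016.

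**Figure D2:**
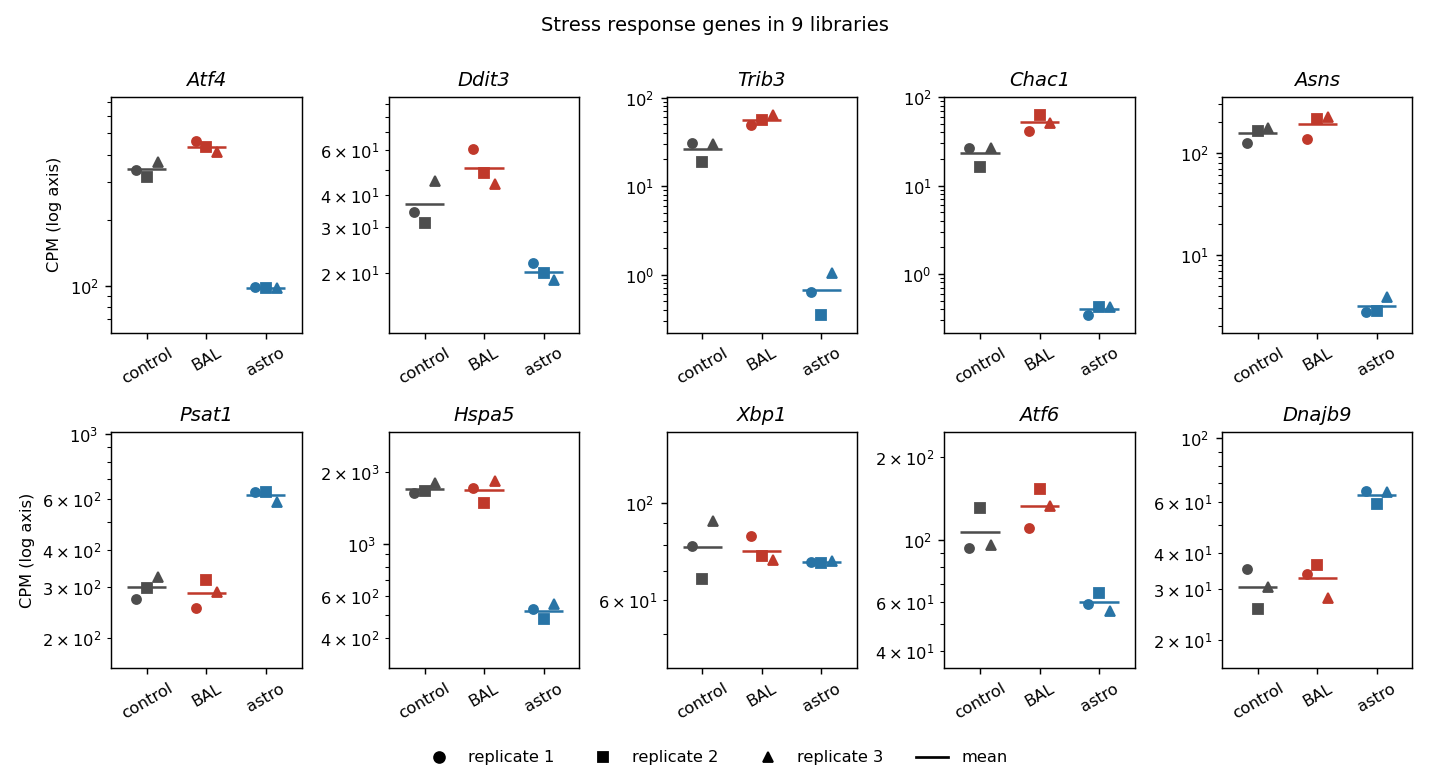
CPM of the 10 genes (log axes) in control, BAL101553 (BAL) and astrocyte-labelled (astro) libraries. Symbols are single libraries and lines are group means of 3. The BAL101553 points of Atf4, Trib3 and Chac1 lie above all control points, while those of the other 7 genes overlap the control points.

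*Atf4* encodes the central transcription factor of the response. It had 341, 315 and 372 CPM in control 1, 2 and 3, and 462, 433 and 411 CPM in BAL101553 1, 2 and 3. The groups did not overlap, with control 3 and BAL101553 3 closest to each other. *Atf4* was 1.28-fold higher after BAL101553, with a log2 fold change of 0.35 (standard error, SE, 0.097, adjusted p = 0.0480, edgeR). The estimate stayed between 0.29 and 0.44 over the 17 alternatives, but the call was lost in 10 of them. These were the 6 fits that dropped a single library (adjusted p 0.0687 to 0.133), the size factors of DESeq2 (0.0539), the filter of at least 1 count in any library (0.0551), the replicate block (0.0860) and 2 libraries per group (0.197).

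*Trib3* encodes a pseudokinase that ATF4 and CHOP induce and that restrains both. It had 30.5, 18.6 and 29.6 CPM in the control libraries and 49.0, 56.3 and 64.1 CPM in the BAL101553 libraries. Control 2 was lowest, and the lowest BAL101553 library was well above the highest control. *Trib3* was 2.16-fold higher, with a log2 fold change of 1.11 (SE 0.20, adjusted p = 0.0149, edgeR). Without control 3 the log2 fold change was 1.21 and the adjusted p 0.0562, and with 2 libraries per group they were 1.30 and 0.0846, whereas the call held in the other 15 alternatives.

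*Chac1* encodes an enzyme that degrades glutathione and is a late target of ATF4. It had 27.0, 16.4 and 26.3 CPM in the control libraries and 41.9, 63.6 and 51.8 CPM in the BAL101553 libraries. Control 2 was again lowest, and the groups did not overlap. *Chac1* was 2.27-fold higher, the largest estimate among the 10 genes, with a log2 fold change of 1.18 (SE 0.22, adjusted p = 0.0180, edgeR). The adjusted p rose to 0.0631 without control 3, to 0.0513 without BAL101553 3 and to 0.0819 with 2 libraries per group, at log2 fold changes of 1.28, 1.19 and 1.42.

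*Ddit3* encodes CHOP, a transcription factor that links prolonged stress to cell death. It had 34.5, 31.2 and 45.1 CPM in the control libraries and 60.1, 48.5 and 44.2 CPM in the BAL101553 libraries. Control 3 lay just above BAL101553 3, so the groups overlapped. The log2 fold change of 0.47 did not pass (95% confidence interval 0.080 to 0.86 before adjustment, adjusted p = 0.0956, edgeR), and it passed in 0 of the 17 alternatives. On the annotation, 81 exonic bases of *Ddit3* are shared with genes on the opposite strand, *Mars* and *Gm4189*, and whether strand was used in counting was not stated.

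Neither gene of amino acid synthesis passed the test. *Asns*, which makes asparagine and is a classic target of ATF4, had 126, 165 and 175 CPM in the control libraries and 136, 214 and 222 CPM in the BAL101553 libraries. BAL101553 1 lay within the control range and the other BAL101553 libraries above it. The log2 fold change was 0.30 (95% confidence interval -0.16 to 0.77, adjusted p = 0.320, edgeR), and without BAL101553 1 it was 0.49 (adjusted p = 0.0809).

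*Psat1*, which makes a precursor of serine, had 273, 298 and 325 CPM in the control libraries and 253, 317 and 289 CPM in the BAL101553 libraries. The groups overlapped, although BAL101553 1 lay below every control and control 3 above every BAL101553 library. Its log2 fold change was -0.054, with a 95% confidence interval of -0.32 to 0.21, and its sign changed with the scaling by library totals.

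In the chaperone arm, *Hspa5*, which encodes BiP, the main chaperone of the endoplasmic reticulum, was by far the most abundant transcript of the 10 in SB28 cells. It had 1628, 1656 and 1787 CPM in the control libraries and 1708, 1473 and 1836 CPM in the BAL101553 libraries. BAL101553 2 was lowest and BAL101553 3 highest, so that the treated libraries enclosed all controls. The log2 fold change was -0.0082 (adjusted p = 0.964, edgeR), its sign changed between scalings, and the upper end of the 95% confidence interval corresponds to a 1.18-fold rise.

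*Dnajb9* encodes a co-chaperone of BiP that XBP1 and IRE1 signalling raise. It had 35.3, 25.6 and 30.6 CPM in the control libraries and 33.9, 36.5 and 28.0 CPM in the BAL101553 libraries. The groups overlapped, and the log2 fold change was 0.11 (95% confidence interval -0.24 to 0.47, adjusted p = 0.644, edgeR).

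*Xbp1* mRNA, whose splicing these counts cannot show, had 79.9, 67.0 and 91.0 CPM in the control libraries and 83.9, 75.6 and 74.1 CPM in the BAL101553 libraries. All BAL101553 libraries lay inside the control range. The log2 fold change was -0.019 (95% confidence interval -0.30 to 0.26, adjusted p = 0.924, edgeR), and its sign changed under library totals.

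*Atf6* encodes the sensor that is cleaved into a transcription factor. It had 94.0, 131 and 96.6 CPM in the control libraries and 111, 153 and 133 CPM in the BAL101553 libraries. Control 2 lay above BAL101553 1, and the groups overlapped. The log2 fold change of 0.31 did not pass (95% confidence interval -0.070 to 0.69, adjusted p = 0.222, edgeR).

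**Figure D3:**
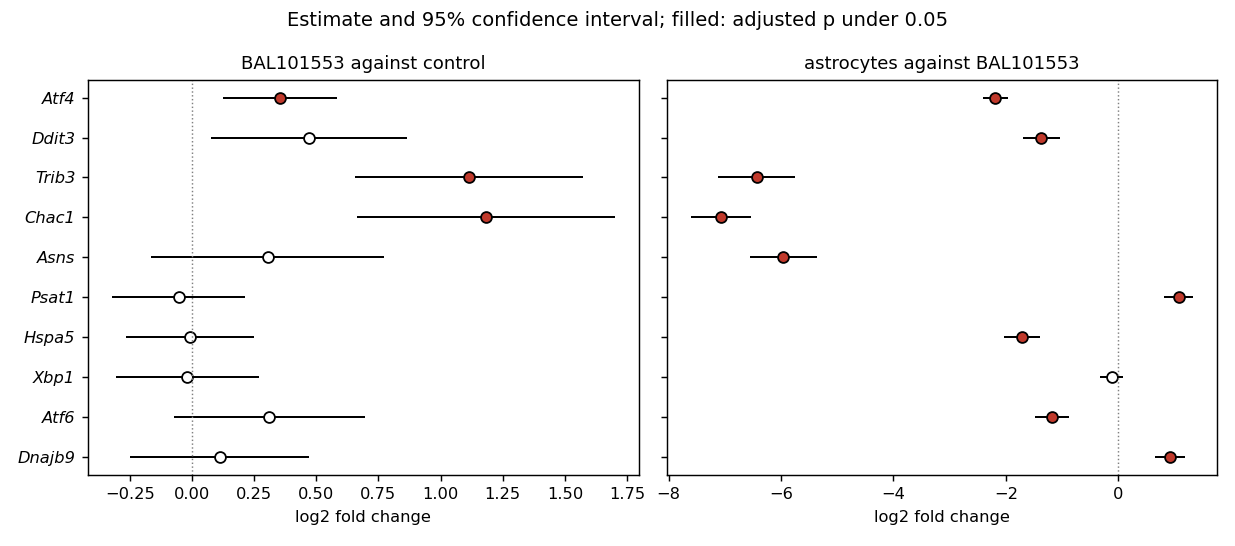
Log2 fold change of each gene with its 95% confidence interval in the 2 comparisons. Filled points have an adjusted p under 0.05. After BAL101553, Trib3 and Chac1 stand at 1.11 and 1.18, while Hspa5, Xbp1 and Psat1 lie near 0. In the libraries labelled astrocytes, Chac1, Trib3 and Asns lie at -5.96 or below.

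Among the 6 SB28 libraries, the levels of *Atf4*, *Ddit3*, *Trib3* and *Chac1* had Pearson's r of log2 CPM between 0.72 and 0.97 over their 6 pairs. *Trib3* and *Chac1* had the highest value. In the other 39 pairs of the 10 genes r lay between -0.69 and 0.74. These values describe 6 libraries that share the treatment split, the scaling and the depth. *Chac1*, *Trib3*, *Ddit3* and *Atf4* had the largest log2 fold changes of the 10 genes, so r over both groups includes that difference. Over BAL101553 1, 2 and 3, *Atf4* went down (462, 433 and 411 CPM), as did *Ddit3* (60.1, 48.5 and 44.2 CPM). *Trib3* went up (49.0, 56.3 and 64.1 CPM), and *Chac1* was highest in BAL101553 2.

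Other genes of the response were counted in lists. Of 30 tested genes of the ATF4 pathway, 3 (10%) rose and 0 fell, a share near the 8.64% of all genes that rose. The count depended on the method. It was 9 with the exact test, 10 with DESeq2 and 10 under library totals, where 11.6%, 11.8% and 11.5% of all genes rose, and 8 with at least 1 count in any library and 8 in the model of all 9 libraries, where 6.36% and 10.9% of all genes rose. With 1 library left out it was 0 without control 1, control 3 or BAL101553 3, where 2.59%, 1.18% and 3.71% of all genes rose. It was highest, at 8, without BAL101553 1, where 5.70% of all genes rose. With 2 libraries per group it was 0, where 0.00787% of all genes rose. Of the 30 genes, 28 had a log2 fold change above 0, against 51.5% of all genes. Their median was 0.39 against 0.016, and 10 of 30 (33.3%) had groups that did not overlap on the higher side, against 20.0%. The list was chosen with earlier results of these data known, so these values describe its genes and are no test. *Stc2*, a secreted glycoprotein gene induced by ATF4, had 5.21 to 8.05 CPM in controls and 11.9 to 14.2 CPM after BAL101553, with a log2 fold change of 0.92 (SE 0.19, adjusted p = 0.0235, edgeR). *Slc1a4*, a transporter of serine and alanine, and *Vldlr*, a lipoprotein receptor, rose by log2 fold changes of 0.55 and 0.39 (adjusted p = 0.0415 and 0.0463). None of the 3 calls was left without control 3. Among genes chosen after their values were seen, *Slc7a11*, the cystine transporter that supplies glutathione synthesis, had 20.2 to 42.4 CPM in controls and 51.0 to 60.4 CPM after BAL101553, with an adjusted p of 0.0563. *Eif4ebp1* went the other way without overlap, from 190 to 205 CPM in controls to 133 to 164 CPM after BAL101553. Its log2 fold change was -0.36 (adjusted p = 0.0527, edgeR). *Atf3* stood at a log2 fold change of -0.59 with overlapping groups (adjusted p = 0.302). With the exact test, 1 gene of the list fell.

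Of the 12 aminoacyl-tRNA synthetase genes, which charge tRNAs and are also reached by ATF4, 0 passed the edgeR test at an adjusted p under 0.05. Of all genes tested, 14.7% passed. The synthetase genes had log2 fold changes of -0.25 to 0.23 and a median of 0.050. Of the 12 genes for eIF2 kinases, eIF2, its exchange factor and its phosphatases, 1 fell and 0 rose, against 6.09% of all genes that fell. This was *Eif2b5*, a subunit of the exchange factor, at 72.6 to 80.0 CPM in controls and 55.6 to 63.4 CPM after BAL101553 (log2 fold change -0.38, adjusted p = 0.0328). Without control 3, under library totals and with the replicate block, 0 genes of the list fell.

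Of the 8 sensor genes of the endoplasmic reticulum, 1 rose, against 8.64% of all genes. *Creb3l1*, a membrane-bound relative of ATF6, had 52.3 to 60.7 CPM in controls and 79.9 to 109 CPM after BAL101553, with a log2 fold change of 0.68 (SE 0.13, adjusted p = 0.0188, edgeR). The genes of PERK (*Eif2ak3*) and IRE1 (*Ern1*) had log2 fold changes of 0.24 each with adjusted p of 0.209 and 0.133. Of 21 chaperone and folding genes of the endoplasmic reticulum, 0 rose and 1 fell, against 6.09% of all genes that fell, and their median log2 fold change was -0.078. The gene that fell was *Manf*, a secreted stress protein, from 130 to 152 CPM in controls to 108 to 115 CPM (log2 fold change -0.35, adjusted p = 0.0380).

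Genes of degradation and transport at the endoplasmic reticulum had 4 that rose, 2 that fell and 21 that were not called of 27 tested, with a median of -0.090. Over all genes, 8.64% rose and 6.09% fell, so that the share that fell was near the background. *Herpud1* and *Syvn1*, parts of the machinery that removes misfolded proteins, rose by log2 fold changes of 0.67 and 0.50 (SE 0.15 and 0.13, adjusted p = 0.0275 and 0.0377, edgeR). *Herpud1* had 33.7 to 47.6 CPM in controls and 58.7 to 71.8 CPM after BAL101553. *Sec61g*, a subunit of the protein channel, fell by 0.55 on the log2 scale (SE 0.12, adjusted p = 0.0257), from 69.6 to 91.3 CPM in controls to 53.9 to 60.2 CPM. Of these 3 lists, 0 genes passed without control 3, and in the list of degradation and transport 0 passed without BAL101553 3 and 1 that rose without control 1.

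**Figure D4:**
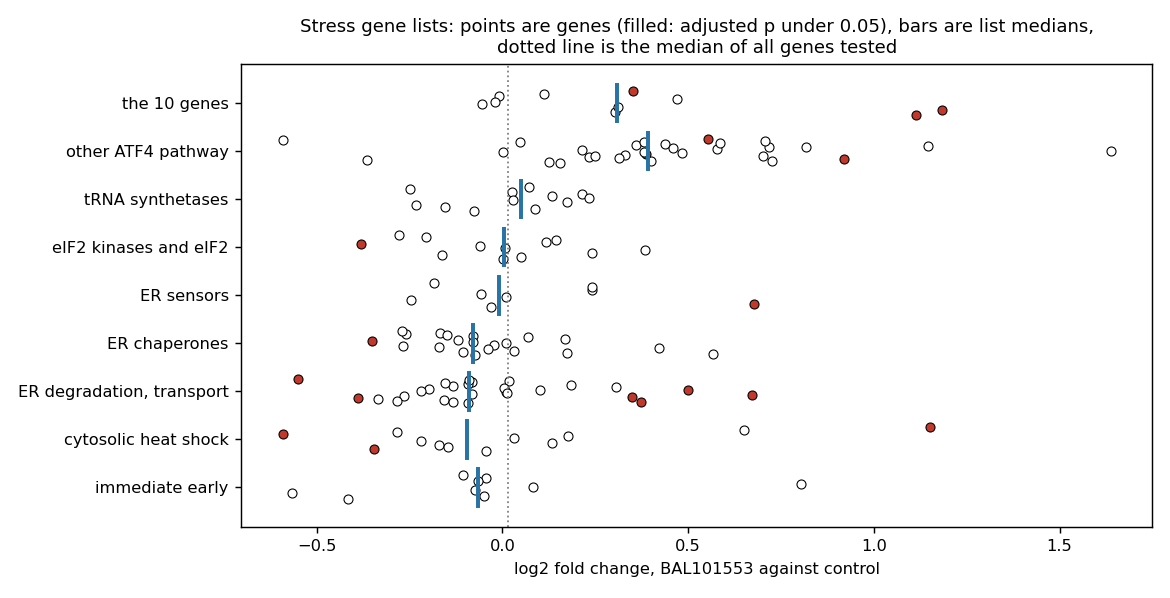
Log2 fold changes after BAL101553 for the genes of each list (points, filled where the adjusted p was under 0.05), with the list median (bar) and the median of all genes tested (dotted line, 0.016). ER, endoplasmic reticulum. The ATF4 pathway genes have a median of 0.39, and the chaperones of -0.078.

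Marker sums of other cell types also differed between the SB28 groups. The astrocyte list summed to 880 to 928 CPM in controls and 649 to 755 CPM after BAL101553, nearly all of it *Gja1*, and the endothelial list to 722 to 851 and 510 to 635 CPM, nearly all of it *Cdh5*. The single markers did not all follow these sums. *Slc1a2*, *Aqp4* and *Gfap* stayed at 1.59 CPM or less in all 6 libraries, as did *Cldn5* and *Pecam1*, and *Rbfox3* was at 0. *Slc1a3* had 0.581 to 0.709 CPM in controls and 1.28 to 2.93 CPM after BAL101553, without overlap and opposite to its list's sum. *Aldoc* ran from 5.02 to 15.2 CPM, *Flt1* from 23.8 to 69.7 CPM and *Tubb3* from 22.7 to 56.0 CPM, each with overlapping groups. The 6 oligodendrocyte genes summed to 18.4 to 20.5 CPM in controls and 15.1 to 18.6 CPM after BAL101553. The part of these differences in the results above was not tested.

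In the libraries labelled astrocytes, *Chac1* and *Trib3* were almost absent. *Asns* and *Hspa5* were lower than in BAL101553-treated SB28 cells, while *Psat1* and *Dnajb9* were higher. Of the 10 genes, 9 passed the test, with 2 higher and 7 lower, but so did 85.1% of the 15314 genes tested, of which 46.3% were higher and 38.9% lower. The median log2 fold change was -1.54 for the 10 genes and 0.18 for all genes. Both groups carry the treatment label BAL101553, and this comparison shares the BAL101553 libraries with the one above. In bulk libraries, fewer cells of a type and less RNA per cell cannot be told apart.

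*Chac1* had 0.347, 0.424 and 0.424 CPM in astrocytes 1, 2 and 3, from 11, 12 and 11 reads, and *Trib3* had 0.631, 0.353 and 1.04 CPM, from 20, 10 and 27 reads. Both lay far below every SB28 library. *Chac1* was 134-fold lower than in the BAL101553 libraries (log2 fold change -7.06, SE 0.22, adjusted p = 5.99e-08, edgeR), and *Trib3* 86.3-fold lower (log2 fold change -6.43, SE 0.29, adjusted p = 3.04e-07). *Asns* had 2.77, 2.83 and 3.85 CPM and was 62.1-fold lower (log2 fold change -5.96, SE 0.25, adjusted p = 2.03e-07).

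*Atf4* itself was far less reduced, at 98.7, 97.3 and 97.7 CPM, a 4.56-fold lower level (log2 fold change -2.19, SE 0.086, adjusted p = 1.58e-07). *Ddit3* had 21.8, 20.0 and 18.8 CPM and was 2.58-fold lower (log2 fold change -1.37, SE 0.14, adjusted p = 2.62e-05). Neither gene overlapped the SB28 libraries. *Ddit3* reads amounted to 19.3% to 22.1% of *Atf4* reads in these libraries, against 9.90% to 13.0% in the SB28 libraries.

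*Psat1* went the other way, with 631, 635 and 586 CPM, all above every SB28 library, and was 2.11-fold higher (log2 fold change 1.08, SE 0.10, adjusted p = 2.32e-05). The other enzymes of serine synthesis, named for this link, were less different: *Phgdh* differed by 0.33 on the log2 scale (adjusted p = 0.0222) and *Psph* had 0.30 (adjusted p = 0.138) in the edgeR test. *Dnajb9* had 65.8, 59.3 and 65.2 CPM and was 1.89-fold higher (log2 fold change 0.92, SE 0.11, adjusted p = 7.67e-05).

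*Hspa5* had 533, 481 and 557 CPM and was 3.28-fold lower (log2 fold change -1.71, SE 0.13, adjusted p = 4.92e-06), and *Atf6* had 59.1, 64.8 and 55.8 CPM and was 2.26-fold lower (log2 fold change -1.18, SE 0.12, adjusted p = 3.66e-05). *Xbp1* was the exception, with 73.2, 73.1 and 73.8 CPM, within the control range of 67.0 to 91.0 CPM and just under the lowest BAL101553 library. Its log2 fold change of -0.12 did not pass (95% confidence interval -0.31 to 0.065, adjusted p = 0.189, edgeR), and its sign changed under upper quartile and library total scaling. The other 9 genes kept their call and direction in all 16 alternatives.

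In the lists, counts are read against 38.9% of all genes lower and 46.3% higher. All 12 aminoacyl-tRNA synthetase genes were lower, by a median of -2.09 on the log2 scale, with *Tars* at 29.5 to 32.6 CPM against 316 to 333 CPM in the BAL101553 libraries (log2 fold change -3.43, adjusted p = 2.22e-08, edgeR). Of 21 chaperone genes, 16 were lower and 3 higher, with *Pdia6*, a disulfide isomerase gene, at 152 to 172 CPM against 625 to 762 CPM (log2 fold change -2.10, adjusted p = 8.28e-07). Of 8 sensor genes 6 were lower, among them *Ern1* and *Creb3l1* (log2 fold changes -2.34 and -2.50), and of 12 genes around eIF2, 8 were lower, *Eif2s1* most (log2 fold change -2.59). Of 30 tested ATF4 pathway genes, 17 were lower and 9 higher. *Eif4ebp1*, which encodes a brake on translation, and *Pycr1*, a proline synthesis gene, were lower (log2 fold changes -5.49 and -4.82, adjusted p = 3.94e-08 and 6.19e-06), whereas *Cbs*, a cysteine synthesis gene, had 175 to 206 CPM against 0.116 to 0.469 CPM (log2 fold change 9.15, adjusted p = 4.08e-08). Of 28 genes of degradation and transport, 17 were lower, *Sec24d* most (log2 fold change -3.11), and 7 higher. *Derl3*, a degradation gene, had 83, 57 and 64 reads in these libraries and 0, 0 and 2 in the BAL101553 libraries. The mixed cell type markers given above belong to the same libraries, and their part in these differences was not tested.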

How the data were processed

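RNA was sequenced by the authors from stranded TruSeq libraries, and alignment used TopHat and counting used HTSeq (0.6.1 in the submitters' processing notes, which name the build mm10) and featureCounts; which counter made the table, its gene annotation and its use of strand were not given in the sources used here. The table that the authors deposited holds raw counts of reads by gene, without normalization, in 9 libraries. All columns were matched to a sample by title.

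Tests on the counts used edgeR 4.0.16 under R 4.3.3 (filterByExpr, TMM, quasi-likelihood test, Benjamini-Hochberg over all genes tested, two-sided, threshold 0.05), fitting only the 2 groups compared. The SE was taken as the absolute log2 fold change over the root of the F statistic. Alternatives used the exact test, limma 3.58.1, DESeq2 1.42.0, other scalings and filters, all 9 libraries, left-out libraries and the replicate number as a block. Exon lengths merge the protein-coding transcripts of GENCODE vM21 (GRCm38), possibly another annotation than the one counted on; its longer locus was used for *Ddit3*. On simulated data for BAL101553 against control, the test recovered 129 of 200 genes changed 2-fold among 12528 tested, with 6 false calls. Smaller changes were not simulated, so their recovery is not known.

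The 10 genes and the lists were chosen with earlier results of these data known. In each list and comparison the 3 called genes with the largest change could be named; list counts cover every gene. Libraries of a group differed by more than sampling noise (chi-square per degree of freedom 14.7 to 60.2), and each was counted as a replicate.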

Additional observations from a re-analysis of the deposited data

How the results depend on the processing

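Of the 10 genes, 3 passed after BAL101553. With 2 libraries per group (control 1 and 2, BAL101553 2 and 3) 0 passed, and 1 gene of the whole table did; with 1 library left out the counts ran from 0, without control 3, to 2 of the 10 genes, and from 193 to 1712 genes of the table, with 1 of the 10 genes and 668 genes without BAL101553 3, 458 genes without control 1 and 1133 without BAL101553 1. Over the table, DESeq2 called 2832 genes and the model of all 9 libraries 3022, against 1860. Of the genes called, 58.7% rose, and 77.4% under library totals. The labels state no pairing by replicate number. Deviations of control and BAL101553 libraries with the same number correlated at 0.10, 0.0060 and 0.11. Control 1 and control 3 correlated best with their own number and control 2 did not, so these values do not settle whether the numbers pair the samples. With the number as a block, 2 of the 10 genes and 1371 genes passed after BAL101553, *Atf4* being lost (adjusted p = 0.0860, edgeR), and 9 of the 10 in the libraries labelled astrocytes.

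Signs changed for genes near 0. After BAL101553 the log2 fold change of *Hspa5* was 0.0036 under upper quartile scaling, 0.080 under library totals, 0.0014 with at least 10 counts in every library and 0.014 with 2 libraries per group; that of *Psat1* was 0.031 under library totals and 0.088 with 2 libraries per group, and that of *Xbp1* 0.067 and 0.030. With 1 library left out *Hspa5* ran from -0.078 to 0.073, *Psat1* from -0.14 to 0.028, *Xbp1* from -0.13 to 0.086 and *Dnajb9* from -0.0078 to 0.22. In the libraries labelled astrocytes, *Xbp1* had 0.060, 0.086 and 0.10 under upper quartile scaling, library totals and the stricter filter. There, library totals moved the median of all genes from 0.18 to 0.39. The cause of these changes was not tested. At these depths *Chac1* and *Trib3* in the libraries labelled astrocytes rest on 27 reads or fewer.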

Other observations

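Of the 12 cytosolic heat shock genes tested after BAL101553, 1 rose and 2 fell (edgeR's quasi-likelihood test), against 8.64% of all genes that rose and 6.09% that fell. *Hspa1b*, which encodes an inducible chaperone, had 23.1 to 41.9 CPM in controls and 62.6 to 69.7 CPM after BAL101553 (log2 fold change 1.15, SE 0.21, adjusted p = 0.0172), and its near-identical neighbour *Hspa1a*, with which reads can be shared, differed by 0.65 on the log2 scale (adjusted p = 0.0978). *Dnajb1* and *Bag3*, co-chaperones of the same system, fell by 0.59 and 0.35 on the log2 scale (adjusted p = 0.0431 and 0.0309). Without control 3, only 1 gene of the list rose and 0 fell. Of 9 immediate early genes, which cell dissociation can raise, 0 passed at an adjusted p under 0.05, against 14.7% of all genes. Their summed level was 3198 to 3881 CPM in controls and 2749 to 4055 CPM after BAL101553, and 2 of 9 had a log2 fold change above 0. *Ier2* came closest, lower without overlap (log2 fold change -0.57, adjusted p = 0.0514, edgeR). With 1 library left out, up to 2 fell and up to 1 rose.

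*Fgf21*, a secreted hormone gene that ATF4 induces, was too low to be tested. It had 3, 0 and 1 reads in the control libraries, 6, 36 and 19 in the BAL101553 libraries and 0 in each library labelled astrocytes; it was named after its values were seen.

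Over the 9 libraries and 15408 genes, the levels most like those of *Atf4* were of *Top1*, 1500012F01Rik and 1110038B12Rik (Pearson's r of log2 CPM 0.998, 0.997 and 0.997), and those most like *Hspa5* were of *Il17rc*, *Pdia6* and *S100a10* (0.999, 0.998 and 0.998). These values largely follow the difference between SB28 libraries and those labelled astrocytes.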
